A study of Rattus norvegicus with 6 samples.

Results

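The genes described are 9 components and regulators of the complement system (C1r, C1s, C2, C3, Cfb, Cfd, Serping1, Cd55 and Cd59) in cultured heart cells of newborn rats. They were chosen by symbol from the 32623 genes of the deposited expression table. All 9 were found, and for Cfb, which has several rows, the row with the highest mean level stood for the gene. The data are 6 RNA-sequencing libraries of primary ventricular myocardial cells from Sprague-Dawley rats at postnatal day 1 to 3. In 3 libraries the cells had received a small interfering RNA against Mettl3 (siMettl3) for 24 h and then lipopolysaccharide (LPS), the bacterial endotoxin sensed by Toll-like receptor 4, for 6 h. In the other 3 a non-targeting control RNA (siNC) was given in its place, followed by LPS for the same time. As every culture had LPS, the values do not show how the genes respond to it. The cells of both groups were taken from a common pool of several rats, so the tests rest on a spread between cultures or libraries that may be only technical.

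Complement is a protease cascade of plasma and tissue fluid that tags microbes and damaged cells. In the classical pathway the recognition protein C1q carries the proteases C1r and C1s, which cleave C4 and C2. In the alternative pathway factor D cleaves factor B bound to C3. Both routes cleave C3, the central component, and can end in a pore, the membrane attack complex. C1 inhibitor (encoded by Serping1) inactivates C1r and C1s, CD55 takes apart the enzymes that cleave C3 and C5, and CD59 blocks the pore. Most plasma complement comes from the liver, while fibroblasts, macrophages and other cells make components locally, and several of these genes are known to respond to LPS and interferons.

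Mettl3, which encodes the enzyme that places N6-methyladenosine on messenger RNA, had 10.3, 10.6 and 9.90 FPKM (fragments per kilobase of transcript, scaled to library size) in siMettl3 replicates 1, 2 and 3, against 18.2, 17.2 and 15.3 FPKM in siNC replicates 1, 2 and 3. Its mean in siMettl3 cells was 60.6% of that in siNC cells, so the knockdown was partial. Total counts ranged from 71202469 to 76668751 per library. The markers of cardiomyocytes were abundant and summed to 9559 to 10658 FPKM in siMettl3 and 9422 to 10083 FPKM in siNC libraries. Markers of other cells that the cultures could hold were present as well, and their values are given with the results. The 13105 genes whose FPKM averaged 1 or more across all libraries were tested with edgeR's quasi-likelihood test on the deposited counts, with a Benjamini-Hochberg adjusted p under 0.05 as the threshold. Log2 fold changes are siMettl3 minus siNC, with the standard error (SE). The same genes were also tested with limma on log2(FPKM + 1).

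The 9 genes spanned a wide range of levels. By mean FPKM over the 6 libraries the order was Cd59 (139), C1r (52.1), C2 (23.3), C1s (13.6), Serping1 (10.97), Cd55 (5.03), Cfb (4.93), C3 (1.84) and Cfd (0.971). C1s and Serping1, Cd55 and Cfb, and C3 and Cfd were neighbours in this order whose ranges over the libraries overlapped. The pore inhibitor was thus the most abundant, and the central component C3 was close to the filter on low values. Cfd lay under the filter and was not tested with the others.

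Of the 8 genes tested, 4 were lower in siMettl3 cells by edgeR and 0 were higher, where 6.59% of all tested genes were called lower and 3.4% higher (9.99% in all). The 4 were the protease genes C1r and C2 and the regulators Serping1 and Cd55, each at 76.3% to 79.8% of its siNC mean in FPKM. At an unadjusted p under 0.05, 6 of the 8 were lower and 0 higher, beside 15.0% and 12.5% of all tested genes (27.6% in all). The libraries of the groups did not overlap for 6 genes that were lower and 1 that was higher, against 11.5% and 26.4% of all tested genes (37.9% in all). The median log2 fold change of the 8 genes was -0.42, beside 0.0025 over all tested genes. By limma 2 of the 8 (C1r and Cd55) were called, both lower, where 4.4% of genes were called lower and 6.53% higher (10.9% in all). By DESeq2 6 of the 8 were called, all lower, with 10.6% of genes called lower and 7.71% higher (18.3% in all). The split of all calls turns with the scaling: edgeR called 445 genes higher and 864 lower, limma 856 and 576.

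**Figure D1:**
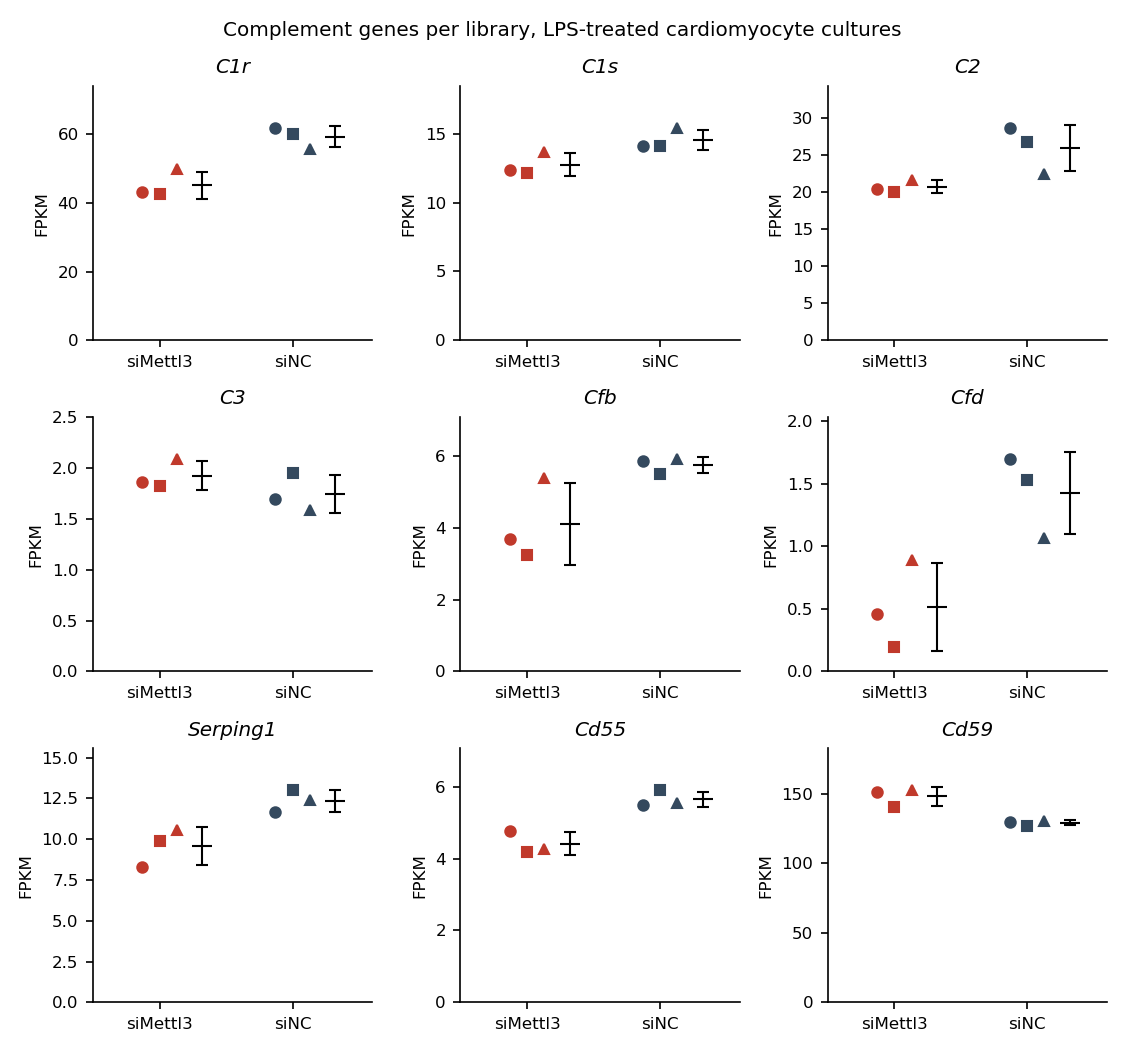
Level of each of the 9 complement genes in FPKM (vertical axis, from 0, a scale for each gene) in the 3 siMettl3 libraries (left, red) and the 3 siNC libraries (right, dark). Circles, squares and triangles are replicates 1, 2 and 3, and the black marks are the mean with the SD of 3 libraries. All siMettl3 points lie below all siNC points for C1r, C1s, C2, Cfb, Cfd, Serping1 and Cd55 and above them for Cd59, while those of C3 overlap.

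Of the classical-pathway proteases, C1r and C2 were lower and C1s did not pass. C1r, the protease that starts the cascade by activating C1s, had 43.1, 42.5 and 49.7 FPKM in siMettl3 replicates 1, 2 and 3, against 61.6, 60.1 and 55.8 FPKM in siNC replicates 1, 2 and 3. All siMettl3 libraries lay below all siNC libraries, with siMettl3 replicate 3 and siNC replicate 3 nearest to each other. The means were 45.1 ± 3.97 FPKM in siMettl3 and 59.1 ± 3.04 FPKM in siNC cells (SD, n = 3 each), from 9028 to 10263 counts in siMettl3 and 11315 to 13462 counts in siNC libraries. The log2 fold change was -0.47 (SE 0.0756, edgeR adjusted p = 0.0135), and limma gave -0.39 (adjusted p = 0.0274). In bulk samples such a difference cannot be told apart from one in the number of cells that express the gene. The edgeR call was lost without siMettl3 replicate 1 (adjusted p = 0.0614) or siNC replicate 1 (adjusted p = 0.0660) and held without any other single library.

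C2, the protease of the classical C3-cleaving enzyme, had 20.4, 20.05 and 21.7 FPKM in siMettl3 replicates 1, 2 and 3, against 28.6, 26.7 and 22.5 FPKM in siNC replicates 1, 2 and 3. The siMettl3 libraries were tight, the siNC libraries spread out, and siNC replicate 3 came close to the siMettl3 values. The log2 fold change was -0.40 (SE 0.0912, edgeR adjusted p = 0.0384), and limma gave -0.31 (adjusted p = 0.0733). Without siNC replicate 3 the adjusted p was 0.0177, and the call was lost without siNC replicate 1 (adjusted p = 0.133) or 2 (0.110) or siMettl3 replicate 1 (0.126), 2 (0.108) or 3 (0.0759).

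C1s, which cleaves C4 and C2 once C1r has activated it, had 12.4, 12.2 and 13.7 FPKM in siMettl3 replicates 1, 2 and 3, against 14.1, 14.1 and 15.4 FPKM in siNC replicates 1, 2 and 3. Its groups did not overlap, yet the difference was smaller than for its partner and did not pass (log2 fold change -0.27, SE 0.0740, edgeR adjusted p = 0.0664; limma adjusted p = 0.128). DESeq2 called it lower (adjusted p = 0.0221). The table places C1r and C1s 6762 bases apart on opposite strands of chromosome 4, C1r (ENSRNOG00000011796) from 157125998 to 157136829 and C1s (ENSRNOG00000011971) from 157143592 to 157155609. The table names no genome build. The ratio of C1r to C1s in FPKM was 3.49, 3.50 and 3.63 in siMettl3 replicates 1, 2 and 3, against 4.36, 4.25 and 3.63 in siNC replicates 1, 2 and 3. It was lower in every siMettl3 library than in siNC replicates 1 and 2, and siNC replicate 3 had the same rounded value as siMettl3 replicate 3.

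Neither C3 nor Cfb, the tested genes of the C3 and alternative-pathway group, passed by edgeR or limma. C3, whose cleavage is the common step of all routes, had 1.87, 1.83 and 2.09 FPKM in siMettl3 replicates 1, 2 and 3, against 1.69, 1.96 and 1.59 FPKM in siNC replicates 1, 2 and 3. The groups overlapped through siNC replicate 2, and the difference did not pass (log2 fold change 0.07, SE 0.114, edgeR adjusted p = 0.743). Its counts were 726 to 808 in siMettl3 and 604 to 781 in siNC libraries. The 3 genes of at least 10 FPKM with the most similar pattern over the 6 libraries were the ubiquitin-conjugating enzyme gene Ube2k (Pearson r = 0.998), the mitochondrial membrane protein gene Tspo (0.987) and Btbd10 (0.985), of 6583 genes compared. An r over 0.9 was found for 110 genes. These correlations describe 6 libraries only.

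Cfb encodes factor B, the protease of the alternative C3-cleaving enzyme. It had 3.70, 3.24 and 5.40 FPKM in siMettl3 replicates 1, 2 and 3, against 5.86, 5.50 and 5.91 FPKM in siNC replicates 1, 2 and 3. The siNC libraries agreed closely, while siMettl3 replicate 3 lay just below them and far above the other siMettl3 libraries. The log2 fold change was -0.56 (SE 0.186, edgeR adjusted p = 0.103; limma adjusted p = 0.113). It did not pass by edgeR or limma and was called lower by DESeq2 (adjusted p = 0.0185). Without siMettl3 replicate 3 it was -0.81 (edgeR adjusted p = 0.0184). Without siMettl3 replicate 1 or 2 it was -0.49 (0.246) or -0.41 (0.217), and without siNC replicates 1, 2 and 3 the adjusted p was 0.234, 0.183 and 0.157.

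Cfd encodes factor D (adipsin), which cleaves factor B. It had 0.460, 0.196 and 0.887 FPKM in siMettl3 replicates 1, 2 and 3, against 1.69, 1.53 and 1.06 FPKM in siNC replicates 1, 2 and 3, from 36, 16 and 67 counts in siMettl3 and 134, 119 and 79 counts in siNC libraries. The groups did not overlap, and the siMettl3 mean was 36.0% of the siNC mean, the lowest share of the 9 genes. The mean over all libraries, 0.971 FPKM, was under the filter. In the fit without a filter its log2 fold change was -1.52 (SE 0.490, edgeR adjusted p = 0.132), which did not pass. As with Cfb, siMettl3 replicate 3 was the highest of its group. The log2 ratio of the mean FPKM was -1.47 with all libraries and ranged with 1 left out from -2.12 (without siMettl3 replicate 3) to -1.08 (without siMettl3 replicate 2). The table lists Cfd (chromosome 7, 12634216 to 12635943) inside Arhgap45 on the same strand. Arhgap45 had 66 to 90 counts in siMettl3 and 71 to 87 counts in siNC libraries, so its level showed no such gap. Markers of adipocytes, in which Cfd is abundant, were low, as Cfd itself was. Summed over 6 genes they had 0.796 to 1.90 FPKM in siMettl3 and 1.94 to 2.43 FPKM in siNC libraries. These sums did not overlap, and siMettl3 replicate 3 was the highest of its group, as for Cfd. Fabp4 was the largest part of each sum and overlapped between the groups (0.358 to 1.51 FPKM in siMettl3, 1.49 to 1.98 FPKM in siNC). The part of adipocytes in the Cfd values was not tested.

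C2 and Cfb are neighbours, and the counting of that locus limits both. The table places C2 (ENSRNOG00000051235) at 4542340 to 4561152 and Cfb (ENSRNOG00000051158) at 4536212 to 4542073 on the minus strand of chromosome 20, with 266 bases between them. A second Cfb row (ENSRNOG00000000419), from 4536203 to 4561066, spans both genes and held 70, 70 and 71 counts in siMettl3 replicates 1, 2 and 3, against 92, 83 and 69 in siNC replicates 1, 2 and 3. How reads were shared between these rows is not given in the sources used here. With the rows summed, an alternative chosen after seeing the table, the locus had 65.4, 63.2 and 73.3 CPM (counts scaled to the library total) in siMettl3 replicates 1, 2 and 3, against 93.3, 87.1 and 76.9 in siNC replicates 1, 2 and 3. Its groups did not overlap, and it was lower in siMettl3 cells (log2 fold change -0.42, SE 0.0886, edgeR adjusted p = 0.0299). That sum was mostly C2, with 4050 of 4840 counts in siMettl3 replicate 1 and 5879 of 7152 in siNC replicate 1. It therefore says little about Cfb alone.

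Among the regulators the inhibitor of C1 and the one of the C3-cleaving enzymes were lower, and the pore inhibitor was not. Serping1, which encodes the inhibitor of C1r and C1s, had 8.30, 9.91 and 10.5 FPKM in siMettl3 replicates 1, 2 and 3, against 11.7, 12.99 and 12.4 FPKM in siNC replicates 1, 2 and 3. Every siMettl3 library was below every siNC library, and siMettl3 replicate 1 was the lowest. The log2 fold change was -0.44 (SE 0.101, edgeR adjusted p = 0.0385; limma adjusted p = 0.0601). The call was lost whichever library was left out, with adjusted p of 0.108, 0.0794 and 0.0531 without siMettl3 replicates 1, 2 and 3 and 0.0880, 0.104 and 0.0715 without siNC replicates 1, 2 and 3. Serping1 thus had a fold change close to that of C1r, whose product it inhibits, and the ratio of C1r to Serping1 overlapped between the groups, with 5.19, 4.29 and 4.72 in siMettl3 replicates 1, 2 and 3, against 5.28, 4.63 and 4.49 in siNC replicates 1, 2 and 3.

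Cd55 encodes decay-accelerating factor, a membrane protein. It had 4.78, 4.19 and 4.26 FPKM in siMettl3 replicates 1, 2 and 3, against 5.50, 5.89 and 5.54 FPKM in siNC replicates 1, 2 and 3. The groups did not overlap, with a gap wider than the spread within either. The log2 fold change was -0.43 (SE 0.0875, edgeR adjusted p = 0.0277), and limma gave -0.30 (adjusted p = 0.0481). With 1 library left out the adjusted p was 0.0517, 0.0697 and 0.0790 without siMettl3 replicates 1, 2 and 3 and 0.0849, 0.0832 and 0.0505 without siNC replicates 1, 2 and 3, so no such fit called it.

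Cd59, the inhibitor of the membrane attack complex, had 152, 140 and 152 FPKM in siMettl3 replicates 1, 2 and 3, against 130, 127 and 131 FPKM in siNC replicates 1, 2 and 3. It was the only one of the 9 whose siMettl3 libraries all lay above the siNC libraries. The difference was small and did not pass (log2 fold change 0.12, SE 0.0542, edgeR adjusted p = 0.1995), and limma on the FPKM as deposited gave 0.19 (adjusted p = 0.0617). The ratio of Cd59 to Cd55 in FPKM, which no scaling of a library changes, was 31.7, 33.4 and 35.8 in siMettl3 replicates 1, 2 and 3, against 23.6, 21.5 and 23.6 in siNC replicates 1, 2 and 3. It was higher in every siMettl3 library than in any siNC library. Whether the fold changes of the regulators differ from each other was not tested.

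**Figure D2:**
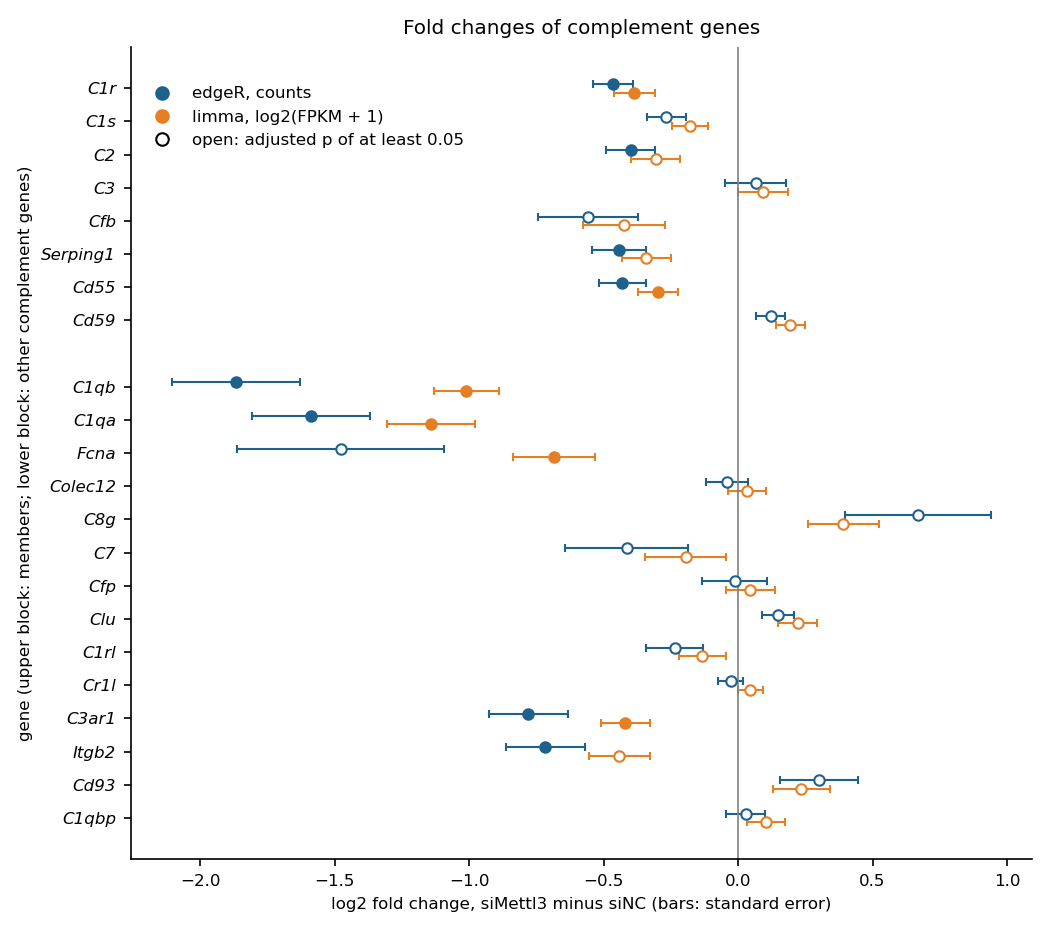
Log2 fold change (horizontal axis, siMettl3 minus siNC, bars for the standard error) of the 8 tested members (upper block) and of the other complement genes named (lower block), by edgeR on counts (blue) and limma on log2(FPKM + 1) (orange). Filled points have an adjusted p under 0.05. Members lie between -0.56 and 0.12 by edgeR, while C1qb and C1qa lie at -1.87 and -1.59.

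The promoters of C1r and Cd55, the 2 genes called lower by both edgeR and limma, and of C3, which was not called, are shown to set them side by side. RefSeq promoters of the GRCr8 build were matched for 4 of the 9 genes (C1r, C3, Cd55 and Cfd), each from 250 bases before to 50 bases after the start. They were searched on both strands for 4 motifs of factors that act downstream of LPS, interferon and interleukin-6. These were the NF-kB motif (GGGA and CC with 4 free bases between them), the interferon-stimulated response element core (TTTC and TTTC with 2 free bases between them), the interferon-gamma-activated site TTCNNNGAA and the C/EBP motif TTNNGCAA. Capitals mark the matches.
C1r (chr4:159098763-159099062, plus strand): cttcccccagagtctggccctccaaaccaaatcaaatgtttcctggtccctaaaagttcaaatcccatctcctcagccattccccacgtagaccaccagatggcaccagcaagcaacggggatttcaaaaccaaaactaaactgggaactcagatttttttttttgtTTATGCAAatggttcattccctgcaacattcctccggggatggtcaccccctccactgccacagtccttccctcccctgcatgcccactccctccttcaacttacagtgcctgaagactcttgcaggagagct
Cd55 (chr13:44438052-44438351, minus strand): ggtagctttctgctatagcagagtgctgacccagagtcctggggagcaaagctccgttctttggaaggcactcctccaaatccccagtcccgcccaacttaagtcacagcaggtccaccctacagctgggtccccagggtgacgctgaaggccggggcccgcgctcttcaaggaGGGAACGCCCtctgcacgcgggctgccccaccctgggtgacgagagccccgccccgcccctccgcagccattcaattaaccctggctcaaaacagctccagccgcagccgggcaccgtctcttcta
C3 (chr9:2201290-2201589, minus strand): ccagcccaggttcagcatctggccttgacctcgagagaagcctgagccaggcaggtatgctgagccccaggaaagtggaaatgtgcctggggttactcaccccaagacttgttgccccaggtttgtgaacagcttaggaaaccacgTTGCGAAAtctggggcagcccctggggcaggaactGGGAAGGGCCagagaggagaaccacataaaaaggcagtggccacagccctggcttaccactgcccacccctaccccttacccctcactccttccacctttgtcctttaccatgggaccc
C1r held 1 C/EBP match, which begins at -83 from the start. Cd55 held 1 NF-kB match, at -76. C3 held 1 match of either kind, NF-kB at -69 and C/EBP at -104. Among 33469 rat promoters of this length, 19.3% held the NF-kB motif and 10.6% the C/EBP motif. The response element core (3.92% of promoters) and the activated site (8.87%) had no match in the 4 promoters, and Cfd had no match to any. No match says only that these letters are not in this window.

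Of 45 other complement genes found in the table, 16 passed the filter, and 4 of these were lower and 0 higher in siMettl3 cells by edgeR, beside 6.59% and 3.4% of all tested genes. At an unadjusted p under 0.05 the counts were 5 lower and 2 higher, beside 15.0% and 12.5%. The 16 include C1qb, Fcna and C8g, which passed the filter only through the group where they were higher, so their counts are no support. The median log2 fold change of the 16 was -0.03, beside 0.0025 over all tested genes. The 4 that fell encode 2 chains of C1q and 2 receptor proteins of leukocytes. C1qb had 0.797, 0.777 and 0.490 FPKM in siMettl3 replicates 1, 2 and 3, against 2.12, 2.73 and 2.34 FPKM in siNC replicates 1, 2 and 3 (log2 fold change -1.87, edgeR adjusted p = 0.00720). It passed the filter of 1 FPKM through the siNC libraries only, with a mean of 0.688 FPKM in siMettl3 and 2.40 FPKM in siNC cells, so a gene at its siMettl3 level in both groups would not have been tested. C1qa had 1.57, 2.07 and 2.15 FPKM in siMettl3 replicates 1, 2 and 3, against 5.37, 6.96 and 4.28 FPKM in siNC replicates 1, 2 and 3 (log2 fold change -1.59, edgeR adjusted p = 0.00871). These chains are part of the protein that carries C1r and C1s. C1qc, the remaining chain, had 0.633, 0.398 and 0.400 FPKM in siMettl3 replicates 1, 2 and 3, against 1.47, 1.94 and 0.840 FPKM in siNC replicates 1, 2 and 3, and lay under the filter.

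The receptor for the C3 fragment C3a, C3ar1, had 1.28, 1.11 and 1.02 FPKM in siMettl3 replicates 1, 2 and 3, against 1.89, 1.78 and 1.91 FPKM in siNC replicates 1, 2 and 3 (log2 fold change -0.78, edgeR adjusted p = 0.0214). Itgb2, the beta chain of the complement receptors of leukocytes, had 1.90, 1.71 and 1.99 FPKM in siMettl3 replicates 1, 2 and 3, against 2.82, 3.45 and 2.47 FPKM in siNC replicates 1, 2 and 3 (log2 fold change -0.72, edgeR adjusted p = 0.0286). The groups did not overlap for either gene. With 1 library left out, C1qa and C1qb were called every time. C3ar1 held without siMettl3 replicate 1 (adjusted p = 0.0483) and was lost without siMettl3 replicates 2 and 3 (0.0697 and 0.0673) and siNC replicates 1, 2 and 3 (0.0814, 0.0585 and 0.0502). Itgb2 held without siNC replicate 3 (0.0296) and was lost without siMettl3 replicates 1, 2 and 3 (0.0901, 0.0890 and 0.0674) and siNC replicates 1 and 2 (0.0886 and 0.0698).

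The other complement genes did not pass by edgeR. The ficolin gene Fcna, a recognition protein, had 0.515, 0.264 and 0.864 FPKM in siMettl3 replicates 1, 2 and 3, against 1.53, 1.41 and 1.43 FPKM in siNC replicates 1, 2 and 3 (log2 fold change -1.48, edgeR adjusted p = 0.0558), and limma called it (adjusted p = 0.0373). It too passed the filter through siNC alone, with a mean of 0.548 FPKM in siMettl3 and 1.45 FPKM in siNC cells. As for Cfb and Cfd, siMettl3 replicate 3 was the highest of its group. The edgeR adjusted p was 0.155, 0.0700 and 0.0291 without siMettl3 replicates 1, 2 and 3, and 0.154, 0.123 and 0.0880 without siNC replicates 1, 2 and 3. Clu, or clusterin, an inhibitor of the terminal complex like CD59, was the most abundant complement gene measured. It had 1233, 1164 and 1276 FPKM in siMettl3 replicates 1, 2 and 3, against 1089, 1038 and 1021 FPKM in siNC replicates 1, 2 and 3 (log2 fold change 0.15, edgeR adjusted p = 0.163). As for Cd59, its groups did not overlap.

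Cr1l, which encodes Crry, the rodent inhibitor of C3 cleavage, averaged 43.7 ± 1.16 FPKM in siMettl3 and 42.3 ± 0.130 FPKM in siNC cells (SD, n = 3 each). Its log2 fold change was -0.03 by edgeR and 0.05 by limma, a sign that turned with the scaling (adjusted p = 0.743 and 0.518). The same held for the scavenger collectin Colec12 (-0.04 by edgeR and 0.03 by limma) and for Cfp, which encodes properdin, the stabilizer of the alternative enzyme (-0.01 by edgeR and 0.05 by limma). The log2 fold changes by edgeR were -0.24 for C1rl, a relative of C1r, 0.30 for Cd93, 0.03 for C1qbp, which encodes a C1q-binding protein, -0.41 for C7 and 0.67 for C8g, the last 2 being components of the pore. None of these, Colec12 and Cfp included, passed (adjusted p of 0.166 to 0.960 by edgeR). C8g passed the filter of 1 FPKM through the siMettl3 libraries, with a mean of 1.40 FPKM in siMettl3 and 0.833 FPKM in siNC cells.

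Much of the cascade was at or under the limit of these data. Of the 45 genes, 29 had a mean under 1 FPKM, and Mbl1, Colec10, C8a and Vsig4 had a count of 0 in all 6 libraries, which allows up to 3 counts in each for counting error alone. The pore components C5, C6, C8b and C9 did not exceed 0.127 FPKM in any library. C4, the component that C1s cleaves beside C2, has near-identical copies C4a and C4b that the counting may have split. They had at most 0.517 FPKM (C4a) and 0.690 FPKM (C4b).

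Markers of some other cell types were lower in siMettl3 cells, while those of others were mixed or not called. Of all tested genes edgeR called 6.59% lower and 3.4% higher, the shares to set beside the counts of each list. Fibroblast markers summed to 887 to 943 FPKM in siMettl3 and 1438 to 1509 FPKM in siNC libraries, with 6 of 8 tested members lower and 0 higher by edgeR, among them Col1a1 (log2 fold change -0.74) and Col3a1 (-0.92). Macrophage markers summed to 42.7 to 58.2 FPKM in siMettl3 and 80.6 to 95.8 FPKM in siNC libraries, with 6 of 7 tested members lower and 0 higher, among them Cd14 (-0.71) and Lyz2 (-1.04). Smooth muscle and pericyte markers summed to 2506 to 2714 FPKM in siMettl3 and 3727 to 4226 FPKM in siNC libraries, with 4 of 7 lower and 0 higher by edgeR, among them Acta2 (-0.67) and Cnn1 (-0.93). That sum was mostly Acta2 and Tagln, and not every gene of the list was lower. The groups overlapped for Rgs5 and Pdgfrb. Cspg4 was higher in all siMettl3 libraries (12.2 to 15.7 FPKM, against 10.1 to 11.9 FPKM in siNC), as were 26.4% of all tested genes. None of the markers of these 3 lists was at 0. Cardiomyocyte markers (8 tested, 0 called by edgeR, Actn2 -0.19 and Myl3 -0.24) overlapped between the groups in their sums. DESeq2 called 1 of the 8 lower, beside 10.6% of all tested genes. Actn2 was lower in all siMettl3 libraries (638 to 674 FPKM, against 691 to 732 FPKM in siNC), as were 11.5% of all tested genes. Endothelial markers had 2 of 4 higher (Cdh5 0.70 and Tek 0.40) and 1 lower, and mesothelial markers 1 of 4 higher (Lrrn4 1.05) and 1 lower (Msln -1.93). Neutrophil markers summed to 0.514 to 1.39 FPKM in siMettl3 and 2.29 to 2.68 FPKM in siNC libraries, without overlap, and Mpo had a count of 0 in all 6. The 1 tested of them, Camp (-1.48), did not pass by edgeR (adjusted p = 0.0961) and was called lower by DESeq2 (adjusted p = 0.0168). Msln and Camp passed the filter of 1 FPKM through the siNC libraries only. Msln averaged 0.470 FPKM in siMettl3 and 1.70 FPKM in siNC cells, and Camp 0.682 FPKM in siMettl3 and 1.82 FPKM in siNC cells. Hepatocyte markers summed to at most 1.87 FPKM in any library. The part of these cell types in the complement values was not tested.

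**Figure D3:**
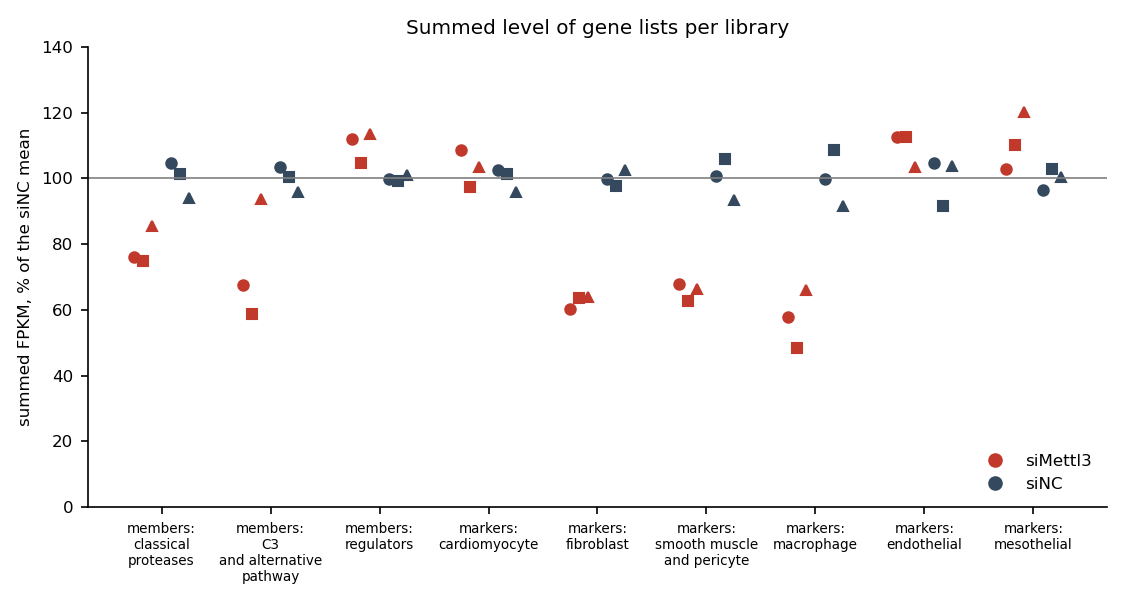
Summed FPKM of the 9 members by role and of 6 marker lists, as a percentage of the mean of the siNC libraries (vertical axis, from 0), in the 3 siMettl3 (red, left of each pair) and 3 siNC libraries (dark, right). Circles, squares and triangles are replicates 1, 2 and 3. The sums of the classical proteases and of the fibroblast, smooth muscle and macrophage markers are lower in all siMettl3 libraries, whereas the regulators, whose sum is mostly Cd59, are higher. The sum of C3 and the alternative pathway, mostly Cfb, is also lower in all siMettl3 libraries, in replicate 3 only just, although C3 itself is not.

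Summed by role, the classical proteases had 75.9, 74.7 and 85.1 FPKM in siMettl3 replicates 1, 2 and 3, against 104, 101 and 93.7 FPKM in siNC replicates 1, 2 and 3. The groups did not overlap, and replicate 3 of each lay nearest to the other. C3, Cfb and Cfd together had 6.03, 5.26 and 8.38 FPKM in siMettl3 replicates 1, 2 and 3, against 9.25, 8.98 and 8.56 FPKM in siNC replicates 1, 2 and 3, with siMettl3 replicate 3 just below the siNC values. Cfb made up most of it, while C3 alone overlapped between the groups, with means of 1.93 FPKM in siMettl3 and 1.75 FPKM in siNC cells. The regulators together had 165, 154 and 167 FPKM in siMettl3 replicates 1, 2 and 3, against 147, 146 and 149 FPKM in siNC replicates 1, 2 and 3. That sum was set by Cd59, and it ran opposite to Serping1 and Cd55.

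**Figure D4:**
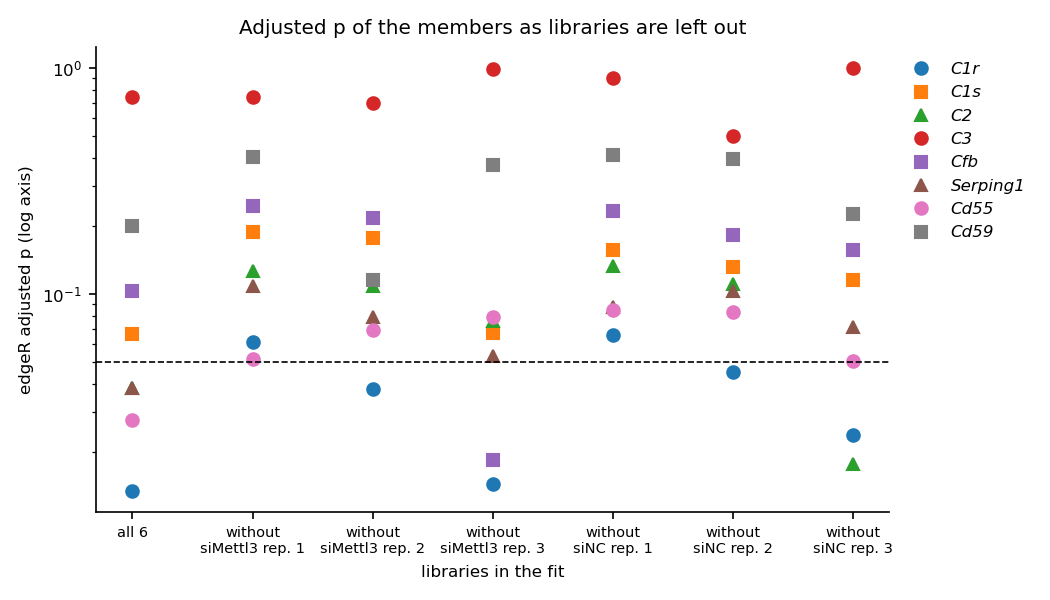
Adjusted p of the 8 tested members by edgeR (vertical log axis) with all 6 libraries and with each library left out in turn (horizontal axis). The dashed line is the threshold of 0.05. With all libraries C1r, C2, Serping1 and Cd55 lie under it, C2 and Serping1 at nearly the same height, and with a library left out 0 to 2 members do.

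Leaving out libraries thus left C1r as the member called most often, in 4 of 6 fits. The number of members called was 0, 1 and 2 without siMettl3 replicates 1, 2 and 3, and 0, 1 and 2 without siNC replicates 1, 2 and 3. At an unadjusted p under 0.05, 5 to 6 members were lower in each of these fits, beside 12.1% to 15.8% of all tested genes. At the same p, 1 member was higher without siMettl3 replicate 2 and 0 without any other library, beside 8.69% to 14.6% of all tested genes. In each of them the log2 fold changes of C1r, C1s, C2, Cfb, Serping1 and Cd55 were below 0. The number of all genes called was also lower, 344 to 1066 in place of 1309.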

How the data were processed

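RNA from 6 libraries (3 siMettl3, 3 siNC, all with LPS) was measured. Per the file headers, the authors deposited FPKM and whole-number counts for each library. Genes with a count of 0 carry 0.0001 FPKM. Counts were proportional to FPKM times a library factor within 1% for 98.7% of values (14527 genes, each with 20 or more counts in all libraries). This cannot tell counts of reads from counts derived from coverage, and which of these they are is not given in the sources used here. Per the submitters' processing notes, Bowtie 0.12.2 and the mouse build mm8 were used in an unstated role, whereas the table lists rat genes; the quantifier and annotation are not given in the sources used here. Whether counting used strand is not stated.

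Counts of genes that averaged 1 FPKM or more were fitted with edgeR 4.0.16 (quasi-likelihood, trimmed-mean factors, 2-sided) in R 4.3.3, on groups alone, with Benjamini-Hochberg adjustment over 13105 genes; SEs are the log2 fold change over the root of F. Alternatives were limma 3.58.1, DESeq2 1.42.0, other scalings and filters, each library left out, and a replicate block. Replicates differed by more than counting noise (chi-square over its degrees of freedom 22.1 to 63.1) and were counted as separate samples. Named genes are the 9 members, of the other complement genes up to 4 of each role with the smallest p plus those called, the 2 markers of each list with the smallest p, the 3 genes most like C3, and genes overlapping a member; C1qc, C4a, C4b, the other low genes and Mpo were named after their values were seen. Members and lists were chosen with earlier results of these data known. Mbl2, Cr1, Ttn, Col1a2, Pecam1 and Ahsg were not analysed here.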

Additional observations from a re-analysis of the deposited data

How the results depend on the processing

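The count of members called (4 of 8) was 2 with limma on log2(FPKM + 1) or log2(FPKM + 0.1), 2 with edgeR on total counts alone, 2 with no filter on low values and 0 to 2 with a library left out. With limma on log2(FPKM + 1) after median-ratio scaling it was 4, all lower. That fit called C2 (adjusted p = 0.0476) and Serping1 (adjusted p = 0.0430), which limma without this scaling did not. The other complement genes called (4) numbered 0 of 5 with a filter of 5 FPKM, which removes the 4, where 1 higher gene had an unadjusted p under 0.05 (13.6% of all genes tested there), and 2 to 3 with a library left out. Other settings called more, all lower. These were 5 of 41 with no filter on low values (673 of all 21272 genes lower) and 6 of 33 with edgeR's own filter (810 of 16544). DESeq2 and limma after median-ratio scaling each called 5 of 16 (1384 and 781 of 13105 genes lower). All genes called (1309) numbered 2394 by DESeq2 and 344 to 1066 with a library left out. With the replicate number as a block, 64 genes, 0 members and 0 other complement genes were called by edgeR, with 6 members and 5 other complement genes lower at an unadjusted p under 0.05, beside 11.2% of all tested genes. At that p, 0 members and 1 other complement gene were higher under the block, beside 8.0% of all tested genes. Same-numbered libraries did not deviate together (correlations of 0.027, -0.217 and -0.0481 for replicates 1, 2 and 3), and not every library correlated best with its own number, so the block is not taken as a pairing. C1r had an adjusted p of 0.106 under the block. No result named turned its direction while past the threshold in any alternative run. The split of all calls was 1025 higher and 632 lower on total counts alone, and 358 and 781 for limma after median-ratio scaling. Cfd rests on few counts, as few as 16 in a library, and its libraries also differed within each group.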
